A study of Homo sapiens with 18 samples.

Results

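The change in open chromatin under cetuximab that was shared by 3 head and neck squamous carcinoma cell lines was read from 17 of the 18 libraries of the series. The assay was ATAC-seq, which uses a transposase to cut and tag exposed DNA, so that read counts report how open a region is. The lines were SCC1, SCC6 and SCC25, established cultures of squamous carcinoma that were grown for 5 days with 100 nM cetuximab or with PBS as the untreated control. Cetuximab is an antibody that binds the epidermal growth factor receptor (EGFR). Each line had 3 cetuximab and 3 PBS libraries except SCC1, in which 2 PBS libraries were used because PBS replicate 2 was not analysed here. Each line is a single culture model, and no label says that the replicates came from separate cultures, so the p-values measure the spread between these libraries, which may be technical.

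EGFR signals through RAS and the kinase ERK to transcription factors such as AP-1, a dimer of JUN and FOS proteins that binds enhancers of growth, migration and matrix remodelling genes. TEAD factors, which bind DNA with YAP1 or TAZ, often share enhancers with AP-1 in epithelial cells. In squamous epithelium, a fall in EGFR activity accompanies exit from the cell cycle and a switch of keratin expression.

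Of 115087 regions, 86315 passed the filter on low signal. A region was counted as common when limma, with the line as covariate, gave an adjusted p under 0.05 over all lines and the log2 change had one sign in SCC1, SCC6 and SCC25. By this definition 3772 regions were higher with cetuximab, 4.37% of the regions tested, and 5742 were lower, 6.65%. Before the sign in each line was asked for, the same fit called 4434 regions higher (5.14%) and 6077 lower (7.04%). The 997 called regions that went the opposite way in a line did so in SCC25 in 654 cases, in SCC1 in 274 and in SCC6 in 69. At the threshold itself, a region near IRS2 was just inside (adjusted p = 0.0499865) and one near SNX10 just outside (adjusted p = 0.050006). Per-library depth ran from 2194851 to 15017130 reads in the regions. In SCC25, 2 of the 3 cetuximab libraries were shallower than every PBS library, at 2513828 and 3214656 reads against 5509462 to 13408698. In SCC1 the cetuximab libraries held 2194851 to 3665345 reads, and the PBS libraries 3577180 and 4171650.

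Where a library had no read in a region, the table holds the value of 1 read, and that value is larger in shallow libraries. In 383 of the common higher regions (10.2%) every library of at least 1 line held no more than 1 read, so the sign there came from the scale of the libraries. This was so in 9 of the common lower regions (0.157%) and in 5.09% of all regions tested. The remaining 3389 higher and 5733 lower regions were above that level in every line. With one floor value in all libraries, an alternative chosen after seeing the data, 2984 higher and 5724 lower regions were common.

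Promoters of the genes listed as markers of squamous epithelium differed in how many libraries had a peak. Promoter regions of CDH1, EPCAM, ITGB4 and LAMB3 had a peak in 12 to 16 of the 17 libraries. Those of the basal keratin KRT5 and of TP63, a regulator of stratified epithelium, had one in 8 and 6, and those of KRT14 and DSG3 in 6 and 5. No promoter region was listed for the leukocyte genes PTPRC, CD3E and SPI1, the endothelial genes PECAM1, CDH5, TEK and VWF, or the fibroblast genes COL3A1, PDGFRB and LUM. The promoter of COL1A1, a fibroblast collagen, was open in 14 libraries and was common higher, with a log2 change of 0.40 (adjusted p = 0.0153, limma), while the promoter of DCN was near the floor in most libraries, with a peak in 6 and a median signal of 1.30. The promoter of CD14, a monocyte gene, had a peak in 3 libraries.

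Regions among those with the smallest p whose cetuximab and PBS libraries did not overlap in any line show what the shared response looks like at the level of DNA. The 300 central bases of 3 higher and 3 lower regions follow, on the plus strand of GRCh37 (hg19). Capitals mark the AP-1 words TGAGTCA and TGACTCA, which are each other's reverse complement, and the TEAD word GGAATGT or its reverse complement ACATTCC. They are shown because these words differed in frequency between regions that were higher and regions that were lower.
SPATA17 region, chr1:217891398-217891697: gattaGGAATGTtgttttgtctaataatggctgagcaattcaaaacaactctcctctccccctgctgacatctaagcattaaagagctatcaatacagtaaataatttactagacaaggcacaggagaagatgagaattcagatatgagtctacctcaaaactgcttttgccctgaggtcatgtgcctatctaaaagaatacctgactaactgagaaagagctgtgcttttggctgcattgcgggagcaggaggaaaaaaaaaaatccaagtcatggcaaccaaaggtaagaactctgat
VAC14 region, chr16:70731184-70731483: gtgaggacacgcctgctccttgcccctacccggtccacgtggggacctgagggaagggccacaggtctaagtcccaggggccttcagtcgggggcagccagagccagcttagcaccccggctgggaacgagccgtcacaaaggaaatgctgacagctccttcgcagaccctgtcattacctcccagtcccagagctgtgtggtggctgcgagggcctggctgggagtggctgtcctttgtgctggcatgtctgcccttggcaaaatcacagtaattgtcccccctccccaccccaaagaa
IL7R region, chr5:35890687-35890986: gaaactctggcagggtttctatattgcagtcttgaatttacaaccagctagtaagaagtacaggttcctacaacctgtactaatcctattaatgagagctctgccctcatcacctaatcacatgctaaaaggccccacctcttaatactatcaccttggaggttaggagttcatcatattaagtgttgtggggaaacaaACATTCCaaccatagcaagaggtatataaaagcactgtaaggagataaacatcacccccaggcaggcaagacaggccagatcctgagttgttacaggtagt
HHAT region, chr1:210547088-210547387: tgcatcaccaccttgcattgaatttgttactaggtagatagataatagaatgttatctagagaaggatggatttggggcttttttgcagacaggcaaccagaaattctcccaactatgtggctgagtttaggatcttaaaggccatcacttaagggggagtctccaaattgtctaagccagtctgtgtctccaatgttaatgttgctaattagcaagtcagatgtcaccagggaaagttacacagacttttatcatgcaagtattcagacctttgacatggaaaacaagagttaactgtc
SDC1 region, chr2:20431427-20431726: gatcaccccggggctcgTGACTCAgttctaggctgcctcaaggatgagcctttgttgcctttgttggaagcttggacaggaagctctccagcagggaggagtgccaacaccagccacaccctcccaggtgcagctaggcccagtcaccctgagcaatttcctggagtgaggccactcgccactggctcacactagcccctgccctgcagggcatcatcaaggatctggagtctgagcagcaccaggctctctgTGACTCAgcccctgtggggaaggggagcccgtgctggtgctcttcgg
ZNF474 region, chr5:121457771-121458070: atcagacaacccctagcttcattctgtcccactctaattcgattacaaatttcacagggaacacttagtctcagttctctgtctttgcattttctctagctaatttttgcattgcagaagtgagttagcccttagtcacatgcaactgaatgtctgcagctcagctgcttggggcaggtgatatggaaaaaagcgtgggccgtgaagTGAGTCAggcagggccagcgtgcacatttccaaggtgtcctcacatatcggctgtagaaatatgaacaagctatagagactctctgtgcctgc

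The first 3 regions were higher and the last 3 lower. None of the 3 higher regions held an AP-1 word over its whole length, and the SPATA17 and IL7R regions each held 1 TEAD word. Each of the 3 lower regions held 2 AP-1 words and no TEAD word, although both of those in HHAT, and 1 in ZNF474, lie outside the bases printed. The lower region with the smallest p, near ASPH and not printed, held 1 AP-1 word. Over the 10 higher and 10 lower regions picked in the same way, all 10 lower regions held an AP-1 word (18 matches in all) against 2 of the 10 higher, and 6 of the higher held a TEAD word against 0 of the lower.

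The SPATA17 region lies in an intron of that gene. In SCC6 its signal (reads scaled per library) was 234, 215 and 262 with cetuximab against 49.5, 59.6 and 57.6 with PBS. In SCC1 it was 49.5, 33.1 and 31.3 against 5.20 and 5.58. In SCC25 the values were 35.2, 22.1 and 42.5 against 13.2, 13 and 9.33. Every cetuximab library of a line lay above every PBS library of that line. The log2 change over all lines, on log2(signal + 1), was 1.97 ± 0.20 (SE, 17 libraries, limma, adjusted p = 1.97e-05), and the test of a difference between lines gave an adjusted p of 0.126.

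The IL7R region lies 16.9 kb from the start site of the interleukin 7 receptor gene. In SCC1 its signal was 71.1, 117 and 108 with cetuximab against 27.3 and 34.6 with PBS. In SCC6 it was 149.5, 97.5 and 95.5 against 29, 27.4 and 30.5. In SCC25 it was 138, 130.3 and 101 against 66.3, 63.5 and 54.3. This was 1 of 2 common higher regions that passed the test in each line on its own as well, with log2 changes of 1.62 in SCC1, 1.91 in SCC6 and 0.98 in SCC25 and adjusted p values of 0.00491, 1.32e-07 and 0.0496 (limma). The VAC14 region, in an exon of a gene whose protein holds together a lipid kinase complex of endosomes, had a smaller log2 change of 0.84 ± 0.09 (adjusted p = 1.97e-05). Its signal with cetuximab was 283, 222 and 274 in SCC1, 326, 329 and 369 in SCC6 and 174, 226 and 204 in SCC25. With PBS it was 119.7 and 149, then 201, 168 and 174, and 138, 116 and 123. Each line moved by a similar amount, with log2 changes of 0.95, 0.91 and 0.67 (interaction adjusted p = 0.562).

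Among the lower regions, the HHAT region sits in an intron of the gene for the acyltransferase that lipidates Hedgehog proteins. Its signal in SCC25 was 184, 221 and 184 with cetuximab against 291, 301 and 310.5 with PBS. In SCC6 it was 173, 175 and 190.1 against 309, 306 and 327, and in SCC1 202, 245 and 258 against 328 and 362. The log2 change was -0.67 ± 0.08 (SE, limma, adjusted p = 4.63e-05), with -0.56, -0.81 and -0.62 in SCC1, SCC6 and SCC25. The SDC1 region, 6.16 kb from the start of the gene for the epithelial proteoglycan syndecan 1, changed by -0.75 ± 0.09 (adjusted p = 5.62e-05). Its signal with cetuximab was 263, 199 and 293 in SCC1, 192, 231 and 239.7 in SCC6 and 145, 143 and 122 in SCC25. With PBS it was 489 and 453, 373, 309 and 347, and 226, 214 and 234. The lowest PBS value was again above the highest cetuximab value in each line. The ZNF474 region had a log2 change of -1.09 ± 0.13 (adjusted p = 9.56e-05) with -1.40, -0.99 and -0.95 in SCC1, SCC6 and SCC25.

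**Figure D1:**
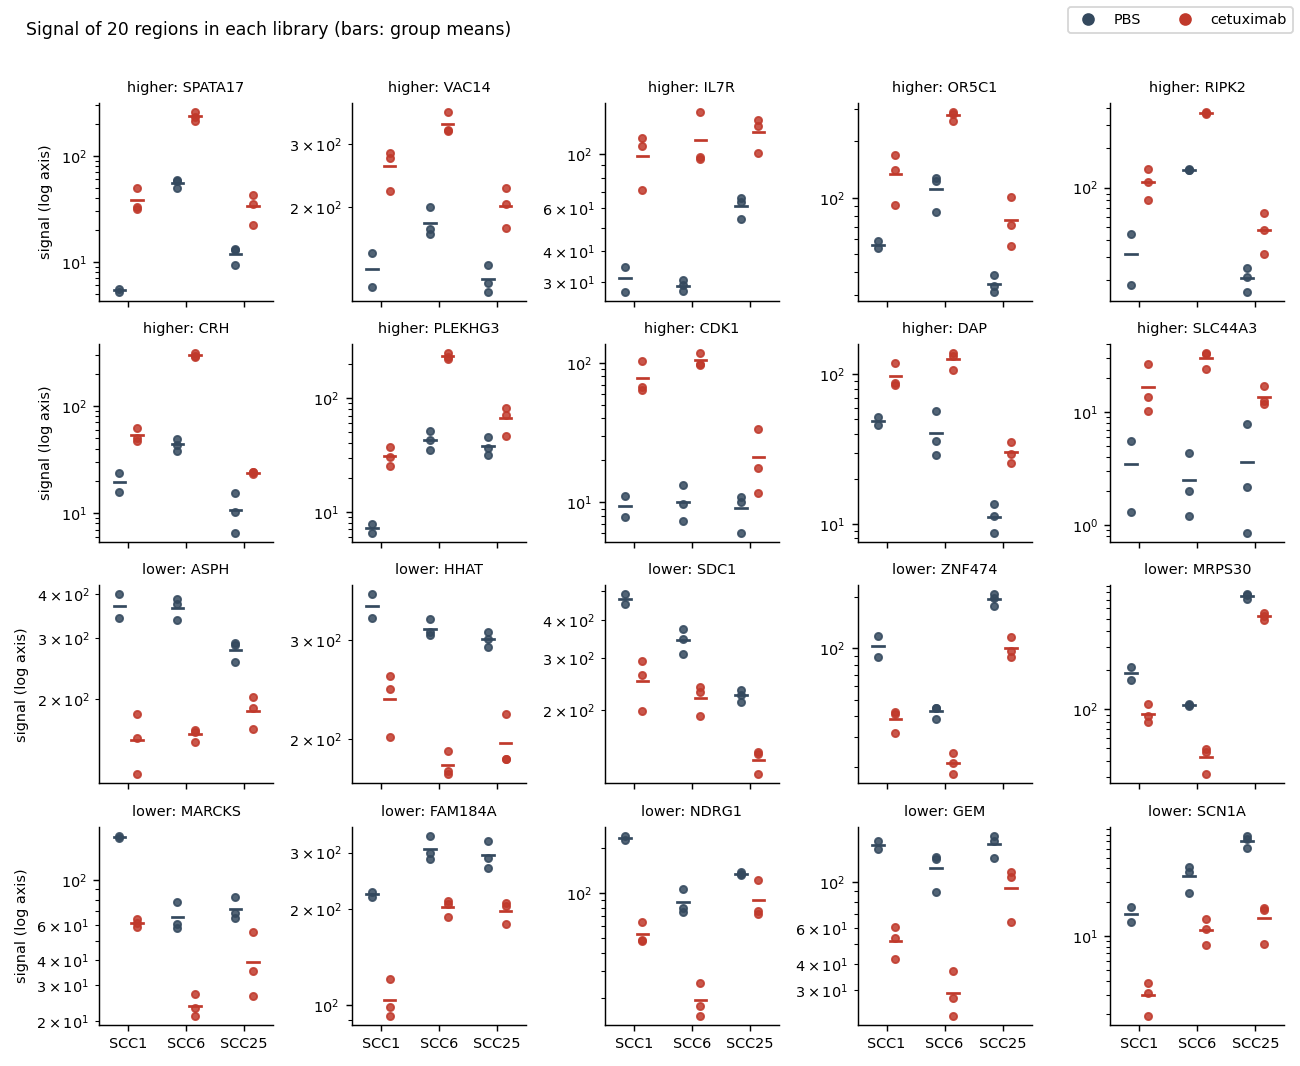
Signal (log axis) of the 10 higher and 10 lower common regions with the smallest p whose groups do not overlap in any line, named by the gene with the nearest start site. Each point is 1 library, grouped by line on the horizontal axis, in dark blue for PBS and red for cetuximab, and bars are group means. In every panel all cetuximab libraries of a line lie on one side of all PBS libraries of that line, a property by which these regions were picked.

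The other 7 higher regions of this pick lay near SLC44A3, CDK1, CRH, PLEKHG3, RIPK2, DAP and OR5C1, with log2 changes from 1.20 to 2.45. The region 20.5 kb from the start of CDK1, the kinase that drives entry into mitosis, was among the largest. Its signal was 67.3, 64.2 and 103 with cetuximab against 7.81 and 11.2 with PBS in SCC1, and 97, 118 and 98.5 against 13.3, 7.36 and 9.79 in SCC6. In SCC25 the groups were closer, at 33.7, 11.7 and 17.7 against 6.03, 10.1 and 11. The size of its change differed between lines (interaction adjusted p = 0.00852, limma). The other 7 lower regions lay near ASPH, FAM184A, MRPS30, MARCKS, GEM, NDRG1 and SCN1A and had log2 changes from -1.95 to -0.73, with MRPS30 the nearest gene at 143 kb. Near NDRG1, a hypoxia- and differentiation-induced gene, signal was 48.2, 64.2 and 48.5 against 243 and 227 in SCC1 and 15.2, 25.1 and 17.5 against 106, 79.6 and 75 in SCC6. In SCC25 it was 75.9, 123 and 72.6 against 139, 134 and 133. The NDRG1 region was lower in all 3 lines, with a smaller change in SCC25 (-0.62) than in SCC1 (-2.12) and SCC6 (-2.13, interaction adjusted p = 0.00152).

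Over the whole common set, the median log2 change was 0.92 for higher regions and -0.85 for lower regions. The lines contributed unequally. In SCC1, SCC6 and SCC25 the higher regions had medians of 0.78, 1.17 and 0.55, and the lower regions -1.05, -0.91 and -0.44. SCC6 showed the largest change of the 3 lines in 57.5% of the higher regions, and SCC1 in 55.3% of the lower regions. A change of over 2-fold in every line was seen in 141 higher and 142 lower regions, and in 342 of all 86315 regions tested. Fits within a single line recovered the common regions to very different degrees. In SCC1 alone, 509 of the common higher and 1618 of the common lower regions passed, where the background was 2.51% of all regions higher and 3.77% lower. SCC6 alone called 2789 and 3476 of them (background 14.4% and 9.98%), and SCC25 alone 6 and 36 (background 0.00811% and 0.0626%). Because the same libraries chose the common set, these counts are a description. Only 2 higher and 6 lower regions were called in each of the 3 lines. When the largest of the 3 single-line p-values was adjusted over all regions, limma called 0 regions in either direction, while 1222 regions of one sign had an unadjusted p under 0.05 in each line.

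The libraries of cetuximab and PBS did not overlap in any line in 534 of the higher (14.2%) and 1391 of the lower common regions (24.2%), against 2.3% of all regions tested. The common set was chosen on these same libraries, which favours such regions, so these shares too are a description. The size of the change differed between lines, by the interaction of line and treatment, in 948 of the common higher regions (25.1%) and 935 of the lower (16.3%), with 13.2% of all regions passing that test. Common higher regions less often had a peak in all lines, counting libraries of either treatment. A peak in at least 1 library of every line was present in 20.8% of them, in 53.2% of the common lower regions and in 36.6% of all regions. Peaks in SCC6 covered 95.5% of the higher regions, and peaks in SCC1 and SCC25 covered 31.0% and 45.1%. The lower regions had a peak in SCC1, SCC6 and SCC25 in 66.5%, 76.4% and 94.7% of cases. Over all regions tested the shares in these lines were 48.3%, 80.6% and 74.3%, so the SCC6 share of the lower regions was below that background.

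To read the response in libraries that took no part in the choice, regions were called on 2 lines with one sign in both and followed in the third. To begin with the lower regions, of 3948 lower over SCC6 and SCC25, 82.1% were lower in SCC1, where 52.8% of all regions were lower, and the median log2 change there was -0.68. Of 5394 regions lower over SCC1 and SCC6, 82.3% were lower in SCC25 (53.8% of all regions), with a median of -0.29. Of 1810 regions lower over SCC1 and SCC25, 76.5% were lower in SCC6 (47.9% of all regions), with a median of -0.51. The higher regions carried over less often, with 66.2% of 3556 in SCC1 (47.2% of all regions), 63.2% of 630 in SCC6 (52.1%) and 64.3% of 4238 in SCC25 (46.2%). Regions with no more than 1 read in every library of SCC1 or of SCC25 count as higher there by the scale of the libraries. They numbered 3386 and 1627 of all regions tested and were kept in these shares. How many were among the chosen regions was not counted. Fewer of the chosen regions passed the left-out line's own test in the same direction. In SCC6, the line with the most calls, 39.4% of the 630 higher and 35.9% of the 1810 lower regions did so, beside 14.4% and 9.98% of all regions, and 43 and 101 passed it in the opposite direction. In SCC1 the shares were 7.31% and 17.7%, beside 2.51% and 3.77% of all regions. In SCC25 they were 0.0708% and 0.371%, beside 0.00811% and 0.0626%.

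**Figure D2:**
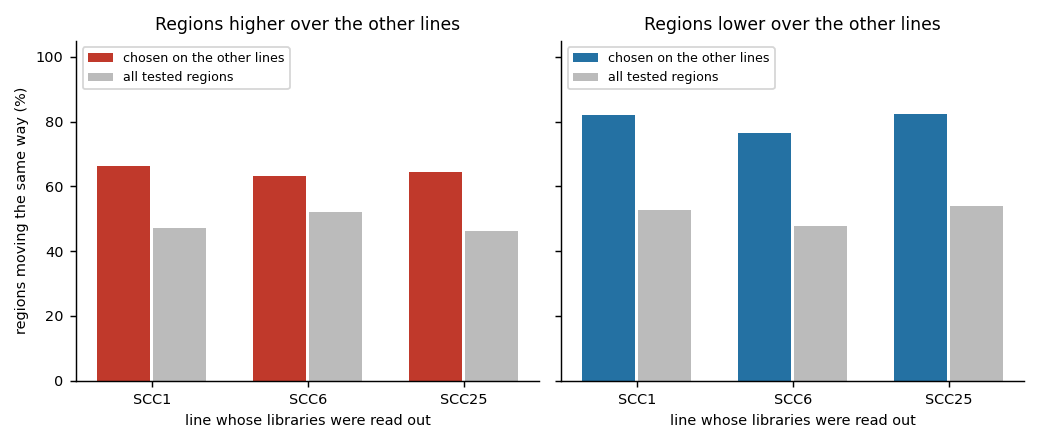
Share of regions (%) that moved in the same direction in a line whose libraries were not used to choose them, for regions higher (left) and lower (right) over the other lines, beside the share of all tested regions moving that way in the same line (grey). In each line the chosen regions exceed the grey bar, by more for the lower regions (76.5% to 82.3%) than for the higher (63.2% to 66.2%).

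The 2 directions differed in DNA sequence, which the choice of regions did not use. Both strands were searched for short words of 18 factor families. An AP-1 word, TGAGTCA or TGACTCA, was found in 64.0% of the common lower regions, in 31.1% of all tested regions and in 14.3% of the common higher regions. Per kb of sequence there were 2.12 matches in the lower regions, 0.992 in all regions and 0.432 in the higher. The share of regions called lower rose with the number of matches, from 3.47% of regions with no match to 12.2% with 1, 20.7% with 2 and 27.1% with 3 or more. The share called higher went from 5.43% to 2.24%, 0.986% and 0.364% over the same classes. Median width also rose over these classes, from 291 bases to 320, 407 and 508, and median signal from 29.2 to 33.4, 49.8 and 75.8. The number of words was not separated from width or signal. AP-1 words are rarer in GC-rich promoters, so the shares were also taken within tertiles of GC content. In the low, middle and high tertile, 64.5%, 67.4% and 53.8% of the lower regions held a match, against 32.5%, 40.5% and 20.2% of all regions there, and 12.4%, 16.5% and 16.6% of the higher regions. In each quintile of mean signal, regions with the word were called lower more often than regions without it, at 9.43% against 2.55% in the weakest quintile and 18.1% against 4.04% in the strongest.

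The TEAD word GGAATGT showed the opposite arrangement. It was present in 20.3% of the common higher regions, in 9.40% of all regions and in 8.08% of the lower. Within tertiles of GC content the higher regions held it in 17.8%, 24.8% and 19.8% of cases, against 10.6%, 11.6% and 6.05% of all regions. The GATA word AGATAAG was in 9.62% of the higher and 5.82% of the lower regions (5.47% of all), and the GRHL word AACNGGTT, bound by Grainyhead-like epithelial factors, in 5.09% and 3.19% (3.64% of all). The CEBP words TTGCGCAA and TTGCACAA were in 3.59% of the lower and 2.07% of the higher regions (1.95% of all). The TFAP2 word GCCNNNGGC and the ETS word CCGGAAG, both common in promoters, were scarcer in both directions than in all regions, with TFAP2 at 12.9% and 12.5% against 18%, and ETS at 1.88% and 2.72% against 5.35%. In the middle GC tertile TFAP2 matches were in 13.7% of the higher, 10.4% of the lower and 10.6% of all regions, so the shortfall over all regions was not seen there. Such a match describes the sequence and does not show that a factor was bound.

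**Figure D3:**
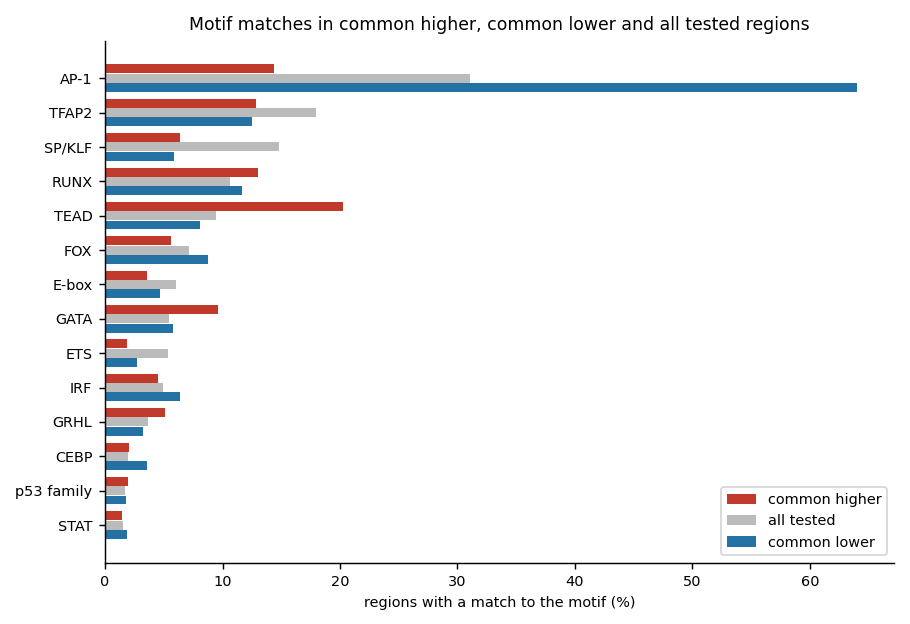
Share of common higher (red), all tested (grey) and common lower (blue) regions with at least 1 match to the word of each factor family, for the families found in 1% or more of all regions. AP-1 matches stand at 64.0% of lower and 14.3% of higher regions, and TEAD matches at 20.3% of higher and 8.08% of lower regions.

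The same contrast was visible in each library without any call on regions. For every library, the mean log2(signal + 1) of the 25185 regions outside promoters with an AP-1 word was compared with that of the 46697 regions without one, a difference that a single scale factor per library leaves almost untouched. In SCC1 it was 0.62, 0.58 and 0.58 with cetuximab against 0.96 and 0.92 with PBS. In SCC6 it was -0.16, -0.11 and -0.04 against 0.21, 0.26 and 0.25, so that in cetuximab-treated SCC6 the regions with the word were on average the weaker ones. In SCC25 it was 1.01, 1.09 and 1.01 against 1.27, 1.25 and 1.26. The cetuximab libraries were below the PBS libraries in all 3 lines with no overlap, by -0.35, -0.34 and -0.22 on the log2 scale. For the 7378 regions with a TEAD word the difference was larger with cetuximab, by 0.11, 0.31 and 0.05 for SCC1, SCC6 and SCC25. It was 0.53 to 0.58 against 0.44 to 0.45 in SCC1, and 0.62 to 0.69 against 0.32 to 0.35 in SCC6. In SCC25 it was 0.48 to 0.54 against 0.44 to 0.47. This comparison is relative, since regions without a TEAD word include regions with an AP-1 word. Over all 8115 tested regions with a TEAD word, promoters included, only SCC6 had a positive median log2 change (0.23). SCC1 had -0.03 and SCC25 -0.02, beside -0.05 and -0.04 for regions lacking the word. For the difference within each library, AP-1, TEAD and GRHL of the 18 families gave groups that did not overlap in any line and moved one way in all lines. In the middle tertile of GC content alone, 5 families did (AP-1, TEAD, TFAP2, ETS and GRHL), and the AP-1 shift with cetuximab was -0.32, -0.36 and -0.16 in SCC1, SCC6 and SCC25. In that tertile the SCC6 regions with an AP-1 word were on average the stronger ones under both treatments. Their difference was 0.09 to 0.13 with cetuximab against 0.47 to 0.48 with PBS.

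**Figure D4:**
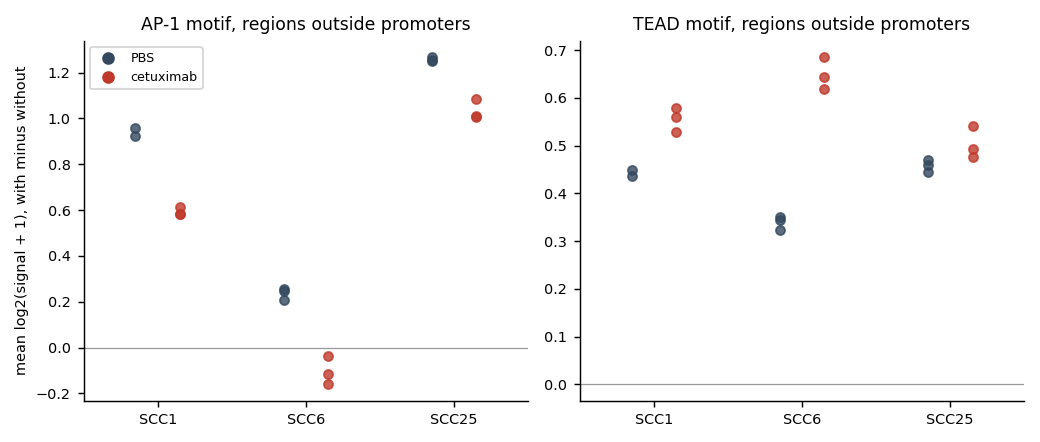
Mean log2(signal + 1) of regions outside promoters with the AP-1 word (left) or the TEAD word (right) minus that of regions without it, for each library, by line (horizontal axis) and treatment (dark blue PBS, red cetuximab). AP-1 points are lower with cetuximab in every line and TEAD points higher, with no overlap between treatments within a line.

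Regions were assigned to the protein-coding gene with the nearest start site within 100 kb, an assignment by position that does not show regulation. Of 63567 such regions, 2560 were common higher (4.03%) and 3972 common lower (6.25%). They belonged to 15488 genes, of which 1496 had only higher regions, 2112 only lower regions and 609 both. The gene lists below are described against these shares, without a test, since lists and members were chosen with results of these data known.

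Matrix metalloproteinase and protease genes, which break down extracellular matrix, had 16 common lower regions of 91 (17.6%) and 6 higher, the highest share of lower regions of the 29 lists. The lower regions lay near 8 of the 16 genes with a region, among them MMP1, MMP2, MMP7, MMP10 and the urokinase gene PLAU. MMP1, MMP7, MMP10 and MMP13, which are neighbours on chromosome 11, held 3, 2, 3 and 2 of them. The share of this list thus rests largely on a single stretch of DNA. PLAU, outside that stretch, had 3 lower regions of 5. At the promoter of MMP1, the interstitial collagenase, signal in SCC6 was 89.9, 96.6 and 76.4 with cetuximab against 290.0, 286 and 234 with PBS. In SCC1 it was 14, 3.89 and 9.39 against 44.2 and 39.1, and in SCC25 60.5, 48.8 and 63.8 against 88.6, 70.7 and 71.3. The groups were apart in each line, the log2 change was -1.36 ± 0.22 (SE, limma, adjusted p = 0.000611), and its size differed between lines (interaction adjusted p = 0.00712). The promoter region holds 1 AP-1 word. MMP13, another collagenase gene, had 2 higher and 2 lower regions of 9. One of the higher regions, 51.8 kb from MMP13, changed by 1.71 ± 0.32 (adjusted p = 0.00173), with 2.31 in SCC1, 2.87 in SCC6 and 0.06 in SCC25.

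ERK feedback and output genes, which ERK induces and of which several restrain it, had 18 lower regions of 164 (11%) and 6 higher (3.66%). Lower regions were nearest to DUSP1, DUSP5, ETV5, MYC, PHLDA1, SPRED2 and SPRY1, and higher ones to DUSP4, DUSP6, MYC, SPRED1 and SPRY2, so that the list did not move as one. DUSP5, a nuclear phosphatase of ERK, had 6 lower regions of 16 and none higher, with log2 changes from -1.64 to -0.39. Of the 18 regions near MYC, the growth-promoting transcription factor, 2 were lower and 1 higher. The one with the smallest p, 5.29 kb from its start site, changed by -0.82 ± 0.14 (adjusted p = 0.000609), with -0.72 in SCC1, -1.27 in SCC6 and -0.44 in SCC25.

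EGFR ligands had 3 lower regions of 21 (14.3%) and 1 higher. The lower ones were 2 of 3 regions near HBEGF, the heparin-binding ligand, and 1 near EGF. The HBEGF region with the smaller p had signal of 17.8, 15.6 and 9.39 with cetuximab against 66.4 and 44.7 with PBS in SCC1, and 10.1, 13.9 and 20.5 against 71.3, 80.3 and 80.5 in SCC6. In SCC25 the groups overlapped, at 30.9, 48.8 and 49.6 against 57.7, 57.7 and 36.5. Its log2 change was -1.47 ± 0.27 (adjusted p = 0.00131), and the lines differed (interaction adjusted p = 0.00349). No common region lay near 5 of the 7 ligand genes.

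The 4 receptor genes of the EGFR family each had at least 1 common higher region, 6 of 51 in all (11.8%), and EGFR also had 4 lower ones. Within an EGFR intron, 35.3 kb from a start site, signal was lower, at 156, 95.4 and 159.6 against 213 and 193 in SCC1, 104, 128 and 119.7 against 207, 201 and 166 in SCC6, and 181, 141 and 170.0 against 213, 191 and 209.5 in SCC25. No cetuximab value reached a PBS value of its line, and the log2 change was -0.54 ± 0.11 (adjusted p = 0.00272). A second region, 71.9 kb from the EGFR start, was higher by 0.64 ± 0.17 (adjusted p = 0.0142), mostly in SCC6 (1.37, against 0.41 in SCC1 and 0.08 in SCC25). That call was lost when the libraries were scaled to regions without a peak. The EGFR promoter, named after its values were seen, was also higher, by 0.36 ± 0.10 (adjusted p = 0.0246), with 0.61, 0.42 and 0.12 in SCC1, SCC6 and SCC25. The intron region holds an AP-1 word and no TEAD word, and the distal region 2 TEAD words and no AP-1 word.

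Downstream of the receptors, RAS, PI3K and adaptor genes had 5 higher and 8 lower regions of 106. The largest change was at a narrow intron region of GAB1, an adaptor that links receptors to PI3K, with -1.95 ± 0.32 (adjusted p = 0.000609) and -1.90, -2.55 and -1.38 in SCC1, SCC6 and SCC25. Its signal was low, from 0.928 to 10.6 with cetuximab and from 9.11 to 26.6 with PBS, and groups overlapped in no line. The list of receptors that can bypass EGFR also holds the ligand genes GAS6, HGF and FGF2. Of its 165 regions 8 were lower, 1 of them near HGF, and 4 were higher, below the shares over all genes. A MET intron region fell by 1.43 ± 0.35 on the log2 scale (adjusted p = 0.00904), and 3 of 10 regions near GAS6, the ligand of AXL, were higher. Near the TFAP2 family genes, limma called 0 of 33 regions in either direction. At an unadjusted p under 0.05 with one sign in all lines there were 1 higher and 5 lower, and edgeR and DESeq2 each called 1 in each direction.

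AP-1 family genes themselves had 5 higher and 3 lower regions of 74. JUN had 2 lower regions of 16. The one with the smallest p, 99.3 kb from the gene, had a log2 change of -1.03 ± 0.24 (adjusted p = 0.00627), and JUNB, named after its values were seen, had 2 higher of 4, with 0.56 (adjusted p = 0.00766) and 0.42 (adjusted p = 0.0167). An ATF3 intron region was higher by 1.59 ± 0.32 (adjusted p = 0.00256). Hippo targets and TEAD factors had 4 higher and 9 lower regions of 116, with 3 of 21 lower near TEAD1 and none higher there. The AJUBA promoter was higher, with 143, 125 and 171 against 61.1 and 69.2 in SCC1, 179.8, 202 and 189 against 149, 122 and 141 in SCC6, and 78.7, 78.8 and 86.8 against 74.6, 52.6 and 58.5 in SCC25. AJUBA encodes a junction protein that restrains Hippo signalling, and its promoter groups did not overlap in any line (log2 change 0.64 ± 0.12, adjusted p = 0.00188).

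Keratin genes had 10 higher regions of 64 (15.6%) and none lower, the highest share of higher regions among the lists. KRT80 held 4 of them, KRT17 2, and KRT7, KRT8, KRT16 and KRT18 1 each, while 9 of the 15 keratin genes with a region had none. Several of these genes are neighbours on a chromosome, so the share does not stand for the whole family. KRT7, KRT8 and KRT18 are keratins of simple epithelium, and KRT16 and KRT17 are stress keratins. The KRT7 region, 2.04 kb from its start site, had signal of 218, 136 and 191 with cetuximab against 100.2 and 100.5 with PBS in SCC1. In SCC6 it was 137, 162 and 149 against 127, 85 and 115, and in SCC25 84.4, 99 and 86.8 against 50.1, 66.3 and 67. The log2 change was 0.60 ± 0.12 (adjusted p = 0.00242), and the change did not differ detectably between lines (interaction adjusted p = 0.656). No keratin region was lower in limma, edgeR or DESeq2, nor at an unadjusted p under 0.05, where 24 were higher. Scaled to regions without a peak, only 2 keratin regions were common higher. The other keratin genes were named after their values were seen. The promoter of KRT8 was higher by 0.57 (adjusted p = 0.00497, groups apart in all lines) and that of KRT16 by 0.84 (adjusted p = 0.00482), and KRT80 had 4 higher regions of 11, from 0.41 to 0.64. The median log2 change over all 64 keratin regions was 0.32, with 0.68 in SCC1, 0.18 in SCC6 and 0.15 in SCC25, against 0.01 over all linked regions.

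Cyclin-dependent kinase inhibitor and p53 target genes had 6 higher regions of 42 (14.3%) and none lower, near CDKN1A (3 of 4), CDKN2B (2 of 9) and SESN1 (1 of 4). No common region lay near the other 10 of the 13 genes. Over the other settings run, the count of common higher regions in this list went from 0 to 8. That range leaves out the fit without the line and the largest p of the 3 lines. At an unadjusted p under 0.05, 8 were higher and 2 lower, and edgeR and DESeq2 each called 1 lower region. The 3 regions near CDKN1A, the p21 gene, named after their values were seen, changed by 0.42 to 0.61. The CDKN2B region, 97.9 kb away, changed by 1.52 ± 0.32 (adjusted p = 0.00349), and 1.85, 2.37 and 0.41 in SCC1, SCC6 and SCC25. Cell cycle and replication genes had 4 higher (5%) and 6 lower (7.5%) regions of 80, near the shares over all linked regions. An intron region of CCNE1, the cyclin of the G1 to S transition, changed by -1.85 ± 0.28 (adjusted p = 0.000297). Its signal in SCC6 was 5.05, 6.5 and 5.95 with cetuximab against 60.4, 61.6 and 29.4 with PBS. In SCC1 and SCC25 it was near the floor with cetuximab, at 1.41 to 3.91, and at 4.33 to 13.6 with PBS.

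VEGF and hypoxia genes had 16 lower regions of 130 (12.3%) and 4 higher, and 9 of 14 genes had at least 1 lower region. NDRG1 accounted for 5 of the 16, with HIF1A, the oxygen-sensing transcription factor, FLT1, a VEGF receptor, and NRP2, a co-receptor, for 2 each. NRP2 also had 2 higher regions of its 20. SLC2A1, the glucose transporter gene, had the other 2 higher regions, the first of which changed by 1.04 ± 0.22 (adjusted p = 0.00369). Lipid and cholesterol genes had 12 lower and 7 higher regions of 116. ABCA1, the cholesterol efflux pump, had 5 lower regions of 15 and none higher, the first with a log2 change of -1.19 ± 0.20 (adjusted p = 0.000766). CD36, a fatty acid receptor, had 3 higher and 1 lower of 14. Its leading region rose from 11.7 and 11.2 to 52, 58.4 and 39.1 in SCC1 and from 10.9, 18.7 and 8.70 to 121, 98.4 and 106 in SCC6. In SCC25 it was 45, 41 and 62 against 31.7, 33.9 and 36.5, and the lines differed (interaction adjusted p = 0.000336).

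Matrix and mesenchymal genes moved both ways. Collagen genes had 12 higher (11.1%) and 9 lower regions (8.33%) of 108, with all 5 common regions near COL5A1 higher and both near COL4A1 lower. The list of epithelial to mesenchymal transition genes had 11 higher and 11 lower of 135. The promoter of FN1, the fibronectin gene, was higher, at 170.1, 127 and 169 against 89.8 and 70.3 in SCC1, 135, 199.6 and 165 against 74.9, 73.6 and 88.1 in SCC6, and 115, 96.4 and 124 against 84, 80.04 and 88.2 in SCC25. Its groups were apart in each line (log2 change 0.79 ± 0.12, adjusted p = 0.000418). A region 20.8 kb from LOX, the collagen cross-linking oxidase, was lower (adjusted p = 0.000404), with log2 changes of -0.94, -1.24 and -0.82 in the lines. Of the TGF-beta pathway, TGFBR1 had 4 higher regions of 11 and none lower, and TGFBR2 3 lower of 14 and none higher. Integrin and laminin genes had 6 higher and 9 lower regions of 126, and an ITGA5 intron region changed by -1.11 ± 0.19 (adjusted p = 0.000829).

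Squamous lineage factors had 10 lower and 5 higher regions of 159, close to the shares over all genes. An intron region of RUNX2 changed by -1.41 ± 0.21 (adjusted p = 0.000236) and was lower without overlap in each line, and a region 37.1 kb from GRHL2 was higher by 1.37 ± 0.19 (adjusted p = 0.000178). Cornified envelope and differentiation genes had 2 regions of 45 in each direction, and desmosome and junction genes 4 of 97 in each. NOTCH pathway genes had 8 lower and 3 higher of 100, WNT pathway genes 12 lower and 6 higher of 145, and guidance and adhesion genes 5 lower and 7 higher of 166. Interferon and antigen presentation genes had 5 lower and 1 higher of 68, and inflammatory genes 9 lower and 6 higher of 119. NRF2 and stress genes had 5 lower and 2 higher of 81, BCL2 family genes 3 lower and 2 higher of 75, TGF-beta pathway genes 11 lower and 8 higher of 148, and nuclear receptor genes 11 lower and 10 higher of 156.

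**Figure D5:**
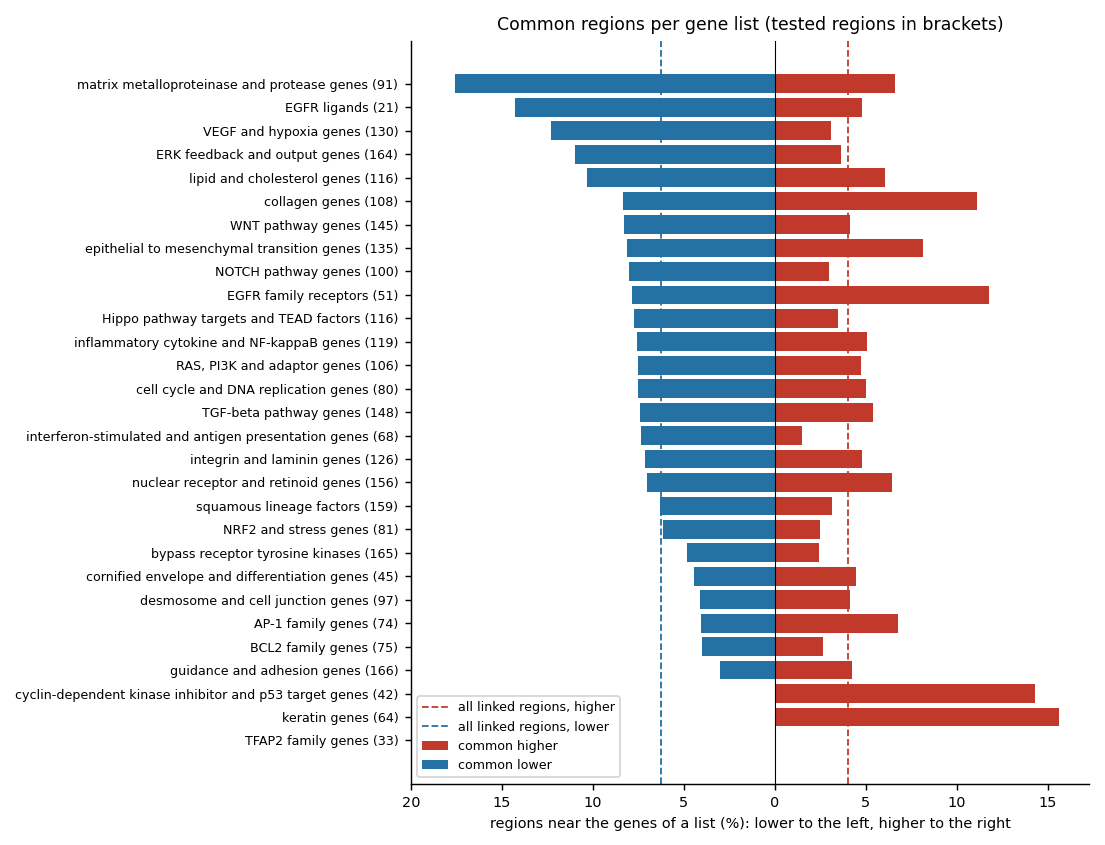
Share of tested regions near the genes of each list that were common higher (red, to the right) or common lower (blue, to the left), with the number of regions in brackets and dashed lines at the shares over all linked regions (4.03% higher, 6.25% lower). Protease genes extend furthest to the left (17.6%) and keratin genes furthest to the right (15.6%), while the keratin and cyclin-dependent kinase inhibitor lists have no lower region and the TFAP2 family list has none in either direction.

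Some genes gathered many common regions. For higher regions these included COL5A1 (5 of 11), CDC42EP3 (5 of 26), SYNE1 (5 of 30), GPR132 (4 of 7), CXXC5 (4 of 8), HEG1 (4 of 8) and COBLL1 (4 of 10), where 4 genes had at least 5 higher regions and 19 at least 4. All 11 regions near COL5A1, which encodes a fibrillar collagen chain, had a positive log2 change over all lines. CDC42EP3 and SYNE1 also had 2 lower regions each, and of the 10 regions near COBLL1 5 had a positive and 5 a negative log2 change. Lower regions gathered near ZC3H12C (7 of 15), CCNL1 (7 of 22), ATXN1 (7 of 25), ZBTB20 (7 of 30), ASAP1 (7 of 55), IRS2 (6 of 14), DUSP5 (6 of 16) and LRATD2 (6 of 17). ASAP1 also had 4 higher regions and LRATD2 3, and the 55 regions near ASAP1 split into 28 positive and 27 negative log2 changes. ZC3H12C encodes an RNase of the family that degrades inflammatory transcripts, and 14 of its 15 regions had a negative log2 change, with a median of -1.20 over the 7 called. IRS2, the insulin receptor adaptor, had 6 lower regions, with -1.19 in SCC1, -0.69 in SCC6 and -0.47 in SCC25 at the median. Genes with many regions have more chances to appear here.

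Promoters, within 1 kb of a start site, moved less often than other regions. Of 14433 promoter regions 234 were common higher (1.62%) and 272 common lower (1.88%), while 5.01% and 7.64% of intron regions and 4.86% and 7.71% of intergenic regions were. The 6 higher promoters with the smallest p were those of LMO7, PIK3AP1, MYO3B, ENSG00000284895 (within HIVEP3), MAPK8 and FN1, and the 6 lower ones those of MAPRE2, STX3, EPS8, KIAA1217, MMP1 and ADAMTS18. MAPK8 encodes the kinase JNK1, and its promoter region changed by 1.48 ± 0.22 (adjusted p = 0.000262), with 1.74, 1.83 and 0.91 in SCC1, SCC6 and SCC25. EPS8 encodes a substrate of EGFR that acts on actin, and its promoter region changed by -0.94 ± 0.17 (adjusted p = 0.00102), with -1.08, -1.46 and -0.30. How many promoters fell in each direction varied with the scaling. After centring every library at its median signal, 249 promoters were higher and 151 lower, with quantile normalisation 281 and 209, with cyclic loess 346 and 226, and scaled to regions without a peak 118 and 295. With DESeq2, which is another model and test, they were 525 and 256, and with the reads thinned to the smallest library (chosen after seeing the data) 195 and 93. Without SCC1 PBS replicate 1 the counts were 132 and 174, the lowest for higher promoters among the fits without a library.

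Over all regions the split moved with the scaling too, with 4791 higher and 4697 lower after centring and 2362 and 6272 when scaled to regions without a peak, against 3772 and 5742. Common higher regions had a median GC content of 42.8% and lower regions 46.2%, against 47.5% for all regions. In the quintile of regions lowest in GC content 7.51% were higher and 5.02% lower, and in the richest quintile 1.92% and 1.80%. With the GC trend of each library removed, 3448 higher and 4816 lower regions were common. Common lower regions made up 0.769% of regions on chromosome 19 and 1.13% on chromosome 22, against up to 8.68% on chromosome 20. In edgeR's quasi-likelihood test on the reads recovered from the signal, where 100% of values were whole multiples of 1 read, 3978 higher and 6080 lower regions were common, including 79.7% and 91.8% of those above.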

How the data were processed

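ATAC-seq was measured in 3 cell lines with cetuximab or PBS. Per the labels and the study's methods, the authors trimmed reads with Trim Galore 0.5.0, aligned them to hg19 (GRCh37) with Bowtie2 2.3.2, handled duplicates and files with Picard 2.18 and SAMtools 1.9, called peaks with MACS2 and built the region table with DiffBind. The deposited signal is a scaled read count per region and library. Values were whole multiples of the value of 1 read, and 0 reads are stored as 1 read, so reads could be recovered. The deposited peak lists, 1 per library, gave the peaks.

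Here regions in the lowest 25% of mean signal were left out, and log2(signal + 1) was tested with limma 3.58.1 (trended, robust, two-sided, Benjamini-Hochberg over 86315 regions) in R 4.3.3, with the line as covariate, per line, and for the interaction of line and treatment. Alternatives used edgeR 4.0.16 and DESeq2 1.42.0 on recovered reads, other scalings, filters and left-out libraries, and the steps were tested on simulated data. Start sites came from GENCODE v44lift37 and sequences from GRCh37. Named regions are the 10 in each direction with the smallest p and no overlap in any line (1 per gene), the 6 promoters in each direction with the smallest p, the 8 genes with most common regions in each direction, and in each list the region with the smallest p in each direction. The members and gene lists were chosen with earlier results of these data known. The precision of each value is limited by depth, and counting error grows as reads fall. SCC1 PBS replicate 2 was not analysed here. A few genes that the rule for named regions or the marker lists would name are not reported here.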

Additional observations from a re-analysis of the deposited data

Results flagged for a closer look

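Of the 81 named regions, 22 (27.2%) changed by different amounts in the lines, by the line-by-treatment interaction in limma with p adjusted over all regions, against 13.2% of all regions tested. One sign in every line was required by the choice of these regions. For the higher regions the adjusted p was 0.000336 for CD36, 0.000519 for MMP13, 0.000861 for STAT2, 0.00104 for DSC1, 0.00172 for LMO7, 0.00402 for DSC3, 0.00524 for the distal EGFR region, 0.00584 for PLEKHG3, 0.00722 for COL7A1, 0.00852 for CDK1, 0.0107 for CRH, 0.0137 for GCLM and 0.0364 for GRHL2. For the lower regions it was 0.00152 for NDRG1, 0.00349 for HBEGF, 0.00712 for MMP1, 0.00731 for ABCA1, 0.00855 for BMP2, 0.0211 for ASPH, 0.0219 for GEM, 0.0242 for EPS8 and 0.028 for MRPS30.

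The STAT2 promoter, of a transcription factor of the interferon response, had a log2 change of 0.99 in SCC1 against 0.05 in SCC6 and 0.16 in SCC25. The MMP13 region had 2.31 and 2.87 in SCC1 and SCC6 against 0.06 in SCC25. The DSC3 region, near a desmosome cadherin gene, was at 1 read or none in every SCC1 library and had 2.79 in SCC6 and 1.35 in SCC25, and the SCC1 sign there came from the scale of the libraries.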

How the results depend on the processing

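No region common in the fit described was called in the opposite direction under any setting run. None of the 81 named regions changed sign, where fits without a whole line were not examined. The settings reuse the libraries that chose these regions, and the choice required one sign in every line. Both outcomes were therefore largely fixed in advance. In the order higher regions, lower regions, higher promoters and lower promoters, the fit gave 3772, 5742, 234 and 272. Leaving out 1 library gave 2558 to 3726, 4094 to 6075, 132 to 243 and 171 to 360. Promoter counts moved by over 1.5 times without SCC1 PBS replicate 1 (132 and 174) or replicate 3 of that group (155 higher), and, for lower promoters, without SCC6 cetuximab replicate 2 (180), SCC6 PBS replicate 1 (181) or SCC6 PBS replicate 3 (171). Without SCC6 there were 630, 1810, 216 and 47, and without SCC1 141 higher promoters. Scaling to regions without a peak gave 2362 higher regions and 118 higher promoters, and centring 151 lower promoters. Leaving out the lowest 50% of regions gave 2329 higher regions. Equal weight of the lines gave 508 and 485 promoters, DESeq2 525 higher promoters, and a window of 3 kb 399 and 498. At an adjusted p under 0.01 there were 1176, 2025, 51 and 55. Reads thinned to the smallest library, chosen after seeing the data, gave 2432, 2892, 195 and 93.

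With the replicate block there were 1582, 2605, 71 and 70, and 8 of the named regions lost their call. Once the mean of each line and treatment was subtracted, correlations of same-numbered cetuximab and PBS libraries ran from -0.042 to 0.026. With so few libraries per group, these values cannot decide whether replicate numbers paired the samples. Without the line as covariate limma called 0 higher and 1 lower region, and 0 promoters in either direction, where 6049 regions passed 0.05 without adjustment. The largest p of the 3 lines gave 0 for each count, where 1222 regions of one sign had each unadjusted p under 0.05. The cause of these shifts was not tested. Leaving out 1 library cost the call of the BCL2L1, BMF, SPRR1B and STAT2 regions. The AP-1 share of common lower regions was 61.9% to 69.9% over the 39 settings with calls in both directions, and 9.52% to 21.2% of higher regions. Shallow libraries limit weak regions most, since 7.14% to 28.8% of the regions held 0 reads or 1 read in a library.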

Other observations

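Some common regions lay next to each other among the tested regions of a chromosome. Of 5043 runs of common lower regions, counting single regions, 16 numbered at least 4, as did 4 of 3476 runs of common higher regions. How many such runs a random placing would give was not worked out. Regions of a run can lie far apart, and the run near UQCRFS1 spanned 724 kb. Common lower regions made up 8.05% of the regions tested on chromosome 15 and 2.99% of those on chromosome 17, while common higher regions made up 6.58% on chromosome 22. These counts and shares are given without a test.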
